A study of Mus musculus with 4 samples.

Results

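The granin genes are a small family of secretory protein genes, and 6 of them, Chga, Chgb, Scg2, Scg3, Scg5 and Vgf, were followed through fetal development of the mouse pancreas. They were taken by name from the 54532 Ensembl gene IDs of the deposited tables. All 6 were found, and each reached 1 FPKM (fragments per kilobase of transcript, scaled to sequencing depth) in at least 1 stage, as 14828 genes did. The material was fetal pancreas of wild-type C57BL/6 mice, which the series calls pancreatic epithelium, at the embryonic days E11.5, E13.5, E15.5 as well as E18.5, with 1 sample per stage. Total RNA was sequenced. The sources used here do not say how the epithelium was isolated or how many fetuses were pooled.

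Granins are acidic proteins of the regulated secretory pathway. They condense with peptide hormones in the trans-Golgi network, are packed into dense-core granules and leave the cell with the hormones when the granules fuse with the plasma membrane. Chromogranin A (Chga) and chromogranin B (Chgb) are widely used markers of endocrine and neuroendocrine cells, and secretogranin II (Scg2) is the precursor of the peptide secretoneurin. Secretogranin III (Scg3) binds chromogranin A and cholesterol-rich granule membrane. Scg5 encodes 7B2, the chaperone of the prohormone convertase PC2, and Vgf encodes a precursor of several peptides. Neurons also make granins, as do chromaffin cells of the adrenal medulla.

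The sequences before the RefSeq starts of the family are shown because the cyclic AMP response element, a site bound by CREB factors, is a known feature of granin promoters. RefSeq starts (build GRCm38.p6) were matched by symbol for 5 of the 6 members, all but Vgf, and the 250 bases before each start are printed 5′ to 3′ on the gene's own strand. Capitals mark the letters TGACGT or their reverse complement ACGTCA, which overlap where the palindrome TGACGTCA is complete.

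Chgb, chr2:132781392-132781641, plus strand: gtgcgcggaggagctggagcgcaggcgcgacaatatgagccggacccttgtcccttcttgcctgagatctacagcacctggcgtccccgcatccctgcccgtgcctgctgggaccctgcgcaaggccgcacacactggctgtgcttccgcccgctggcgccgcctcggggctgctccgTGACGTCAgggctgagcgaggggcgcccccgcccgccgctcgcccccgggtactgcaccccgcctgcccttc

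Scg2, chr1:79440027-79440276, minus strand: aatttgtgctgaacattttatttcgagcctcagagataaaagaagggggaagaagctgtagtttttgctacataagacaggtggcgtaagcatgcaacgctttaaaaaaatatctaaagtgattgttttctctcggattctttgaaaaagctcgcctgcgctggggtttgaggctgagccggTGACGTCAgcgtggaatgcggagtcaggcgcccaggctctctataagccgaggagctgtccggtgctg

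Chga, chr12:102554691-102554940, plus strand: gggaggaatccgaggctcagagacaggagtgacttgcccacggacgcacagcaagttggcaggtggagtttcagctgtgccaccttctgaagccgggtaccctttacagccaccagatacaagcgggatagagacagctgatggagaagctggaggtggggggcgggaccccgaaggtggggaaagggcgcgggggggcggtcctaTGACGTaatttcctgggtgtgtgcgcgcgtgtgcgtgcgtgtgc

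Scg5, chr2:113829092-113829341, minus strand: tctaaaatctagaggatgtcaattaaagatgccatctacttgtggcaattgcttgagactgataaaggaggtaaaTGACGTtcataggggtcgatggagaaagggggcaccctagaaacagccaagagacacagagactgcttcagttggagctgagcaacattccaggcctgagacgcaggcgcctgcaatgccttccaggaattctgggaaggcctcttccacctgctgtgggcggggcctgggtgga

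Scg3, chr9:75684057-75684306, minus strand: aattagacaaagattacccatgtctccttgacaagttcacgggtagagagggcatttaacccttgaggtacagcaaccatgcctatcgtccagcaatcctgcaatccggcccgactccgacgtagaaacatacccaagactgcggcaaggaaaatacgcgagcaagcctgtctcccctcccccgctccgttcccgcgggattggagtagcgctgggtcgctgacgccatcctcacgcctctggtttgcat

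The complete palindrome was in 2 of the 5 windows, with its first base 72 bases before the start in Chgb and 68 bases before it in Scg2. The 6 letters TGACGT without the rest of the palindrome were in 2 others, with the first base 44 bases before the start in Chga and 175 bases before it in Scg5. They were not found on either strand in the Scg3 window. Among 32544 RefSeq windows of the same length, 6.50% held the 6 letters on either strand, those with the palindrome included, and 1.55% held the palindrome. The GENCODE M21 gene spans given below begin further upstream than the RefSeq starts for Chgb, whose window lies wholly inside its span, and for Scg2 and Scg5, whose windows overlap theirs in part. The matches describe letters and not occupied sites. G and C made up 72.8% of the Chgb window and 62.4% of the Chga window, against 48.0% of that of Scg2.

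Each deposited value was the authors' mean FPKM of a gene, and the values could be written as whole reads of 2 libraries per stage, with an estimated 2.89e+07 to 3.38e+07 reads for both together. Levels below are the means after median-of-ratios scaling across stages, and ± gives the SD between the 2 libraries (n = 2). Of the 24 stage values of the family, 21 could be split into their libraries. Chgb on E13.5 and E18.5 and Chga on E18.5, with about 80190, 41077 and 79487 reads, had too many reads for a unique split and have no SD and no test. Among genes with at least 1000 reads in both libraries, the median fold between libraries was 1.03 in every stage. The labels do not tell whether the libraries of a stage are separate fetuses, so the spread behind every limma p-value is that between these libraries only and may be technical. In RNA of a whole tissue, fewer cells of a type and less RNA per cell cannot be told apart.

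The E11.5 sample differed from the others in its markers. Pdx1, a factor required for pancreas formation, was at 2.93 ± 0.501 FPKM on E11.5, 79.0 ± 1.43 on E13.5, 60.6 ± 4.23 on E15.5 and 77.4 ± 2.25 on E18.5. Epcam, an epithelial gene, was at 294 FPKM on E11.5, 768 on E13.5, 686 on E15.5 and 858 on E18.5. The 15 neuronal markers summed to 2509 FPKM on E11.5, 51.0 on E13.5, 33.0 on E15.5 and 95.3 on E18.5. Oc90, a gene of the inner ear, was at 1251 FPKM on E11.5, 0.0437 ± 0.00444 FPKM on E15.5 and listed at 0 in the other samples. The part of such cells in the granin levels of E11.5 was not tested.

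Summed over the family, granin transcripts stood at 130.02 FPKM on E11.5, 976 on E13.5, 315 on E15.5 and 2289 on E18.5. These sums were 0.0422%, 0.288%, 0.0603% and 0.494% of all FPKM of the samples. The lower sum on E15.5 than on E13.5 rested mostly on Chgb, as the other 5 members summed to 153 scaled FPKM on E15.5 and 160.1 on E13.5. With every sample set to the same FPKM total, others fell more clearly in this step. The log2(FPKM + 1) differences were then -2.95 for Chgb, -0.81 for Chga, -1.01 for Scg3, -0.71 for Scg5, -0.96 for Vgf and 0.55 for Scg2.

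**Figure D1:**
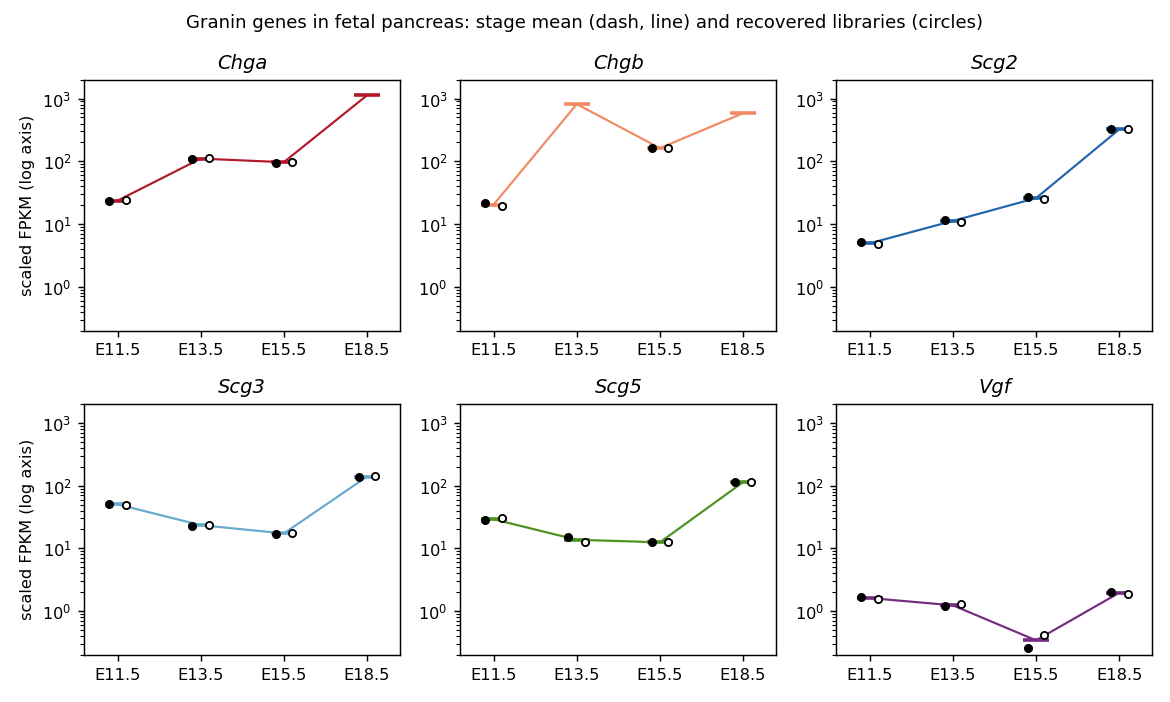
Scaled FPKM of the 6 granin genes on log axes, with stages from left to right. Dashes joined by lines are stage means, and filled and open circles are the 2 recovered libraries. Chgb was highest on E13.5 (816 FPKM) and Chga, Scg2, Scg3 and Scg5 on E18.5, while Vgf was between 0.342 and 1.96 FPKM.

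Chgb (ENSMUSG00000027350, chromosome 2, 132781278 to 132795079, plus strand, mm10) went up and down between stages. Its libraries held 21.7 and 19.1 FPKM on E11.5, its mean was 816 FPKM on E13.5, its libraries held 162.41 and 162.43 FPKM on E15.5, and its mean was 585 FPKM on E18.5. Chgb was highest on E13.5, above 99.7% of the measured genes. The E13.5 mean was 40.0-fold the E11.5 mean, a difference of 5.25 on the log2(FPKM + 1) scale. The E15.5 mean was 0.199 times the E13.5 mean, a log2 difference of -2.32, and only 0.108% of measured genes had a lower difference in that step. The E18.5 mean was 3.60-fold the E15.5 mean and 0.717 times the E13.5 mean. None of these differences has a test, since 1 or both of the means in each could not be split.

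Chga (ENSMUSG00000021194, chromosome 12, 102554969 to 102565028, plus strand) held 22.9 and 24.2 FPKM in the libraries of E11.5, 109.9 and 111 in those of E13.5 and 95.2 and 98.5 in those of E15.5, and its mean was 1126 FPKM on E18.5. Both E13.5 libraries lay far above those of E11.5, and both E15.5 libraries lay slightly below those of E13.5. In a limma fit of genes split in both stages compared, Chga rose on E13.5 against E11.5 by 2.18 on the log2 scale (SE 0.0398, adjusted p = 6.33e-07). In the same fit it fell on E15.5 against E13.5 by 0.19 (SE 0.0398, adjusted p = 0.0109). With every sample set to the same FPKM total, the log2 difference of Chga in that step was -0.81, still under 2-fold. The E18.5 mean was 11.6-fold that of E15.5 and 10.2-fold that of E13.5, with no test.

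The order of the pair changed with stage. Chga was at 1.16 times the level of Chgb on E11.5, 0.135 times on E13.5, 0.596 times on E15.5 and 1.92 times on E18.5. The libraries of both genes did not overlap on E11.5 or on E15.5, the stages where both could be split.

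Scg2 (ENSMUSG00000050711, chromosome 1, 79434669 to 79440120, minus strand) rose at every step. Its libraries held 5.10 and 4.75 FPKM on E11.5, 11.52 and 10.9 on E13.5, 26.7 and 25.1 on E15.5 and 322.55 and 322.62 on E18.5. No libraries of different stages overlapped. Limma gave a log2 difference of 1.04 for E13.5 against E11.5 (SE 0.0483, adjusted p = 4.22e-06). It gave 1.14 for E15.5 against E13.5 (adjusted p = 1.18e-05) and 3.59 for E18.5 against E15.5 (adjusted p = 2.25e-07). The E18.5 level was 65.5-fold that of E11.5, and the corresponding ratios of the other members lay between 1.21 and 47.8. With every sample set to the same FPKM total the earlier steps were 0.94 and 0.55, under 2-fold.

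Scg3 and Scg5, the genes of the granule membrane protein and of the PC2 chaperone, had similar courses. Scg3 (ENSMUSG00000032181, chromosome 9, 75643189 to 75684056, minus strand) held 51.9 and 48.9 FPKM in the libraries of E11.5, 23.0 and 23.9 in those of E13.5, 17.0 and 17.6 in those of E15.5 and 137 and 141 in those of E18.5. Scg5 (ENSMUSG00000023236, chromosome 2, 113776362 to 113829121, minus strand) held 28.2 and 30.0 FPKM on E11.5, 14.9 and 12.5 on E13.5, 12.516 and 12.452 on E15.5 and 113.60 and 113.73 on E18.5. Both genes were lower on E13.5 and E15.5 than at either end of the span.

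On E13.5 against E11.5 Scg3 fell by 1.07 on the log2 scale (SE 0.0430, limma adjusted p = 2.35e-06) and Scg5 by 1.04 (SE 0.0772, limma adjusted p = 3.60e-05). Both lay close to 2-fold. In 2 of the 4 pairings of single libraries, Scg5 differed by -0.87 and -0.96, under 2-fold. Beside these falls, the neuronal gene Tubb3 was at 13.8 ± 0.383 FPKM on E13.5 and 427 ± 0.134 on E11.5. Markers of other tissues, such as the inner ear gene Oc90 given above, were lower on E13.5 as well. The part of any such cells in the falls of Scg3 and Scg5 was not tested.

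On E15.5 against E13.5 Scg3 fell by a further 0.42 (limma adjusted p = 3.34e-04). For Scg5 the log2 difference was -0.12 (SE 0.0772, limma adjusted p = 0.226) and the libraries overlapped. With every sample set to the same FPKM total, the log2 difference of Scg5 in that step was -0.71, still under 2-fold. Without library 2 of E13.5 the log2 difference of Scg5 was -0.24, and without library 1 of E13.5 it was -4.47e-04. On E18.5 against E15.5 Scg3 rose by 2.94 (limma adjusted p = 2.25e-07) and Scg5 by 3.09 (limma adjusted p = 8.24e-07). The E18.5 level was 2.76-fold that of E11.5 for Scg3 and 3.90-fold for Scg5. With every sample set to the same FPKM total, the log2 difference of Scg3 over this span was 0.87, under 2-fold.

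Vgf (ENSMUSG00000037428, chromosome 5, 137026392 to 137033351, plus strand) was low at every stage. Its libraries held 1.67 and 1.56 FPKM on E11.5, 1.196 and 1.27 on E13.5, 0.261 and 0.422 on E15.5 and 2.02 and 1.90 on E18.5, from 174, 132, 24 and 149 reads. The E15.5 libraries were the lowest and overlapped no others. Limma called a fall of 0.74 on E15.5 against E13.5 (SE 0.0797, adjusted p = 4.08e-04) and a rise of 1.14 on E18.5 against E15.5 (adjusted p = 3.39e-05). On E13.5 against E11.5 limma called a fall of 0.23 (adjusted p = 0.0416), which was lost without any one library of E11.5, E13.5 or E18.5 (adjusted p from 0.0556 to 0.154). On E18.5 against E11.5 the log2 difference was 0.18 (limma adjusted p = 0.0837), and the adjusted p was 0.0483 without library 1 of E15.5 and 0.0489 without library 2. With every sample set to the same FPKM total the log2 difference over this span was -0.20, the opposite direction. Vgf never reached 5 FPKM, so it could not pass the rule of size below.

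Members were counted by 2 rules. The rule of size takes genes at least 2-fold apart on the log2(FPKM + 1) scale with the higher level at 5 FPKM or more, and it has no error. Limma takes an adjusted p of at most 0.05 over 13750 genes split in all 8 libraries, among them Scg2, Scg3, Scg5 and Vgf. Limma called a large share of all genes in each comparison, and its counts are to be read against the shares given beside them.

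On E13.5 against E11.5 the rule of size took 3 members as higher (Chgb, Chga and Scg2) and 2 as lower (Scg3 and Scg5), and it called 5.78% of all genes higher and 5.74% lower. The members' median log2 difference was 0.41, and that of all measured genes -0.02. Of the 4 members that limma tested in all libraries 1 rose and 3 fell, where 31.8% of all tested genes rose and 37.1% fell. With every sample set to the same FPKM total, 2 members passed the rule of size as higher and 2 as lower. The fit in which Chga rose called 32% of its genes risen.

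On E15.5 against E13.5, 1 member was higher (Scg2) and 1 lower (Chgb) by the rule of size, against 3.64% and 1.48% of all genes. The medians were -0.30 for the members and 0.00 for all genes. Limma called 1 of 4 risen (Scg2) and 2 fallen (Scg3 and Vgf), against 29.3% and 27.5% of all tested genes. With every sample set to the same FPKM total, Scg2 no longer passed the rule of size and Scg3 did, at -1.01, so 0 were higher and 2 lower. The fit in which Chga fell called 27.6% of its genes fallen.

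On E18.5 against E15.5, 5 members were higher, all but Vgf, and 0 lower by the rule of size, against 6.29% and 5.55% of all genes. The medians were 3.01 for the members and 0.04 for all genes. Limma called 4 of 4 risen and 0 fallen, against 38.1% and 31% of all tested genes. The log2 differences of Scg2, Chga, Scg5 and Scg3 were above those of 99.5% to 99.9% of measured genes, and that of Chgb above 97.9%.

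On E18.5 against E11.5 the rule of size took the same 5 members as higher and 0 as lower, against 10.4% and 7.55% of all genes, with medians of 3.35 for the members and 0.00 for all genes. Limma called 3 of 4 risen and 0 fallen, against 37.1% and 38.2% of all tested genes. On E18.5 against E13.5, which leaves out the E11.5 sample, 4 members were higher (Chga, Scg2, Scg3 and Scg5) and 0 lower, against 5.35% and 3% of all genes. The medians there were 2.74 and 0.06, and limma called 4 of 4 risen and 0 fallen, against 35.9% and 25.1% of all tested genes.

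**Figure D2:**
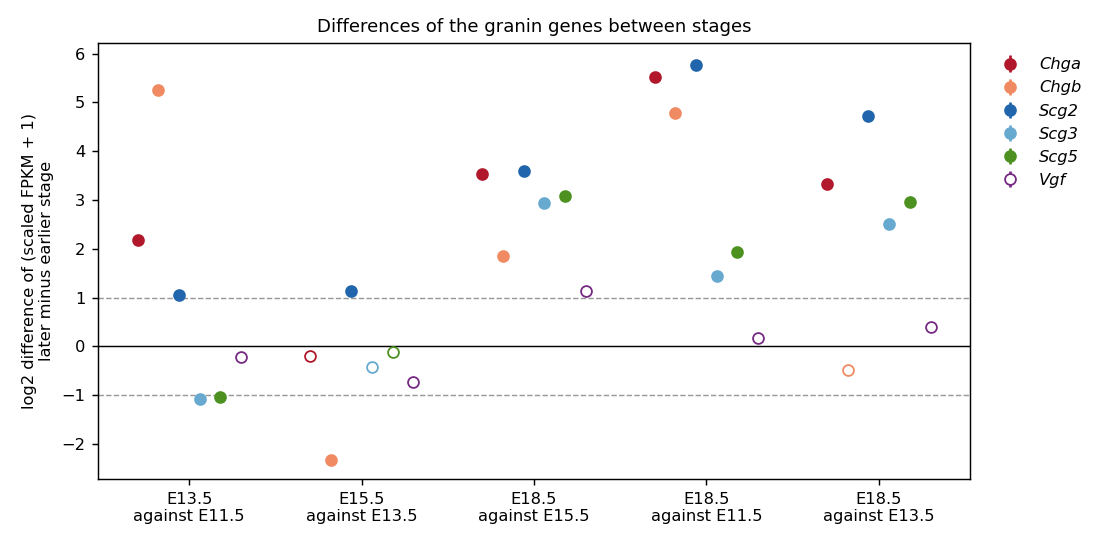
Log2 difference of (scaled FPKM + 1), later minus earlier stage, for each granin gene and comparison. Filled points passed the rule of size and open points did not, bars are limma standard errors where a test existed, and dashed lines mark 2-fold. The 5 filled points of E18.5 against E15.5 lie between 1.84 and 3.59, while the earlier steps have points on both sides of 0.

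The make-up of the family changed with stage. FPKM is scaled per length, so levels of different members can be set beside each other. Scg3 held 38.8% of the summed granin FPKM on E11.5 and Scg5 22.4%. Chgb held 83.6% on E13.5 and 51.5% on E15.5. On E18.5 Chga held 49.2%, Chgb 25.6% and Scg2 14.1%.

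The order of levels on E11.5 was Scg3, Scg5, Chga, Chgb, Scg2 and Vgf. On E13.5 it was Chgb, Chga, Scg3, Scg5, Scg2 and Vgf, on E15.5 Chgb, Chga, Scg2, Scg3, Scg5 and Vgf, and on E18.5 Chga, Chgb, Scg2, Scg3, Scg5 and Vgf. Libraries of neighbours in these orders did not overlap where both could be split. The closest by ratio were Chga and Chgb on E11.5, at 23.6 ± 0.946 and 20.4 ± 1.85 FPKM.

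**Figure D3:**
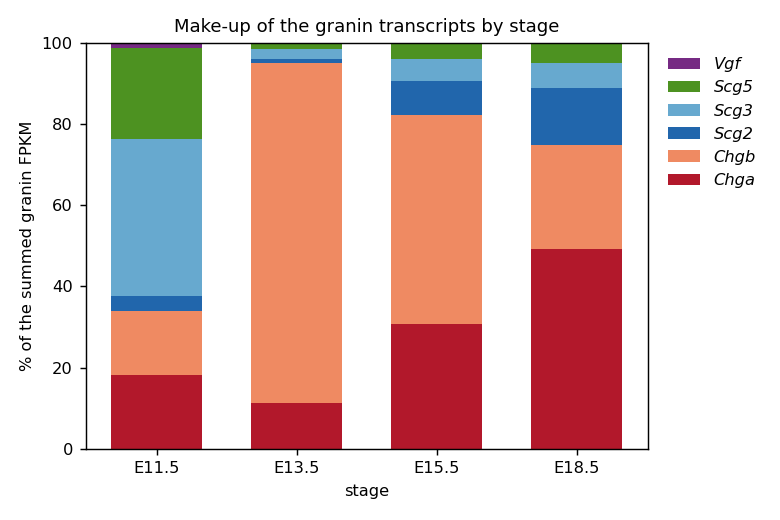
Share of each gene in the summed FPKM of the 6 granins at each stage, in percent. Chgb fills 83.6% of the E13.5 bar and Chga 49.2% of the E18.5 bar, while Scg3 fills 38.8% of the E11.5 bar.

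Granin transcripts were set beside those of the hormones they are packed with. The 8 islet hormone genes (Ins1, Ins2, Iapp, Gcg, Sst, Ppy, Pyy and Ghrl) summed to 289 FPKM on E11.5, 2909 on E13.5, 3592 on E15.5 and 37085 on E18.5. For every 100 FPKM of hormone transcripts there were 45.1 FPKM of granin transcripts on E11.5, 33.5 on E13.5, 8.78 on E15.5 and 6.17 on E18.5. These ratios take all cells of a sample together. They also lean on few members, as Scg3 and Scg5 held 38.8% and 22.4% of the granin sum on E11.5 and Chgb 83.6% on E13.5. Gcg, the glucagon gene and the most abundant of the 8 at each stage, was at 211 FPKM on E11.5, 2399.6 on E13.5, 1383 on E15.5 and 15751 on E18.5. By the rule of size 7 of the 8 were higher and 0 lower on E15.5 against E13.5, against 3.64% and 1.48% of all genes. The exception was Gcg, whose log2 difference of -0.79 did not pass that rule. Ins2, an insulin gene, was listed at 0 on E11.5 and was at 29.0 ± 5.16 FPKM on E13.5, 614 ± 6.81 on E15.5 and 5323 on E18.5.

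Of 8 genes that process prohormones, 6 passed the rule of size as higher on E18.5 against E15.5 and 0 as lower, their median log2 difference was 2.10, and limma called 6 of 7 risen, against 6.29% of all genes higher by size and 38.1% risen by limma. Pcsk2, which encodes PC2, the client of the Scg5 product, was at 1.47 ± 0.178 FPKM on E11.5, 5.26 ± 0.291 on E13.5, 8.09 ± 0.576 on E15.5 and 74.4 ± 1.045 on E18.5. Pcsk1, the gene of the convertase PC1/3, was at 0.290 ± 0.0579 FPKM on E11.5, 7.52 ± 0.0471 on E13.5, 5.73 ± 0.466 on E15.5 and 39.8 ± 1.38 on E18.5. Both convertase genes rose on E13.5 against E11.5, with limma adjusted p of 7.66e-06 and 2.72e-07. Pcsk1n, whose product proSAAS inhibits PC1/3, was at 8.995 ± 0.580 FPKM on E11.5, 32.2 ± 0.912 on E13.5, 40.8 ± 0.552 on E15.5 and 264 ± 10.96 on E18.5. Cpe, the carboxypeptidase that trims the cut peptides, was at 104 FPKM on E11.5, 183 on E13.5, 142 on E15.5 and 822 on E18.5 and could not be split. The lower sum of the 8 on E15.5 than on E13.5 came from Cpe, as the other 7 summed to 63.7 FPKM on E15.5 and 55.7 on E13.5. On E15.5 against E13.5 none of the 8 passed the rule of size, and limma called 3 risen and 4 fallen among 7, against 29.3% and 27.5% of all tested genes.

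Of 27 measured genes of the granule membrane and of exocytosis, 7 were higher and 3 lower on E13.5 against E11.5 by the rule of size, against 5.78% and 5.74% of all genes. On E18.5 against E15.5, 16 were higher and 0 lower, their median log2 difference was 1.19, and limma called 20 of 24 risen, against 6.29% of all genes higher by size and 38.1% risen by limma. Slc30a8, the zinc transporter gene of insulin granules, was at 87.5 ± 1.504 FPKM on E18.5 and 4.21 ± 0.169 on E15.5. Scgn, which encodes the calcium-binding protein secretagogin, was at 333 ± 3.16 FPKM on E18.5 and 59.3 ± 0.344 on E15.5. Snap25, an exocytosis gene of neurons and endocrine cells, had its highest level on E11.5, as neuronal markers did, and was at 31.6 ± 0.614 FPKM on E11.5, 1.55 ± 0.189 on E13.5, 0.821 ± 0.127 on E15.5 and 6.48 ± 0.0946 on E18.5.

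**Figure D4:**
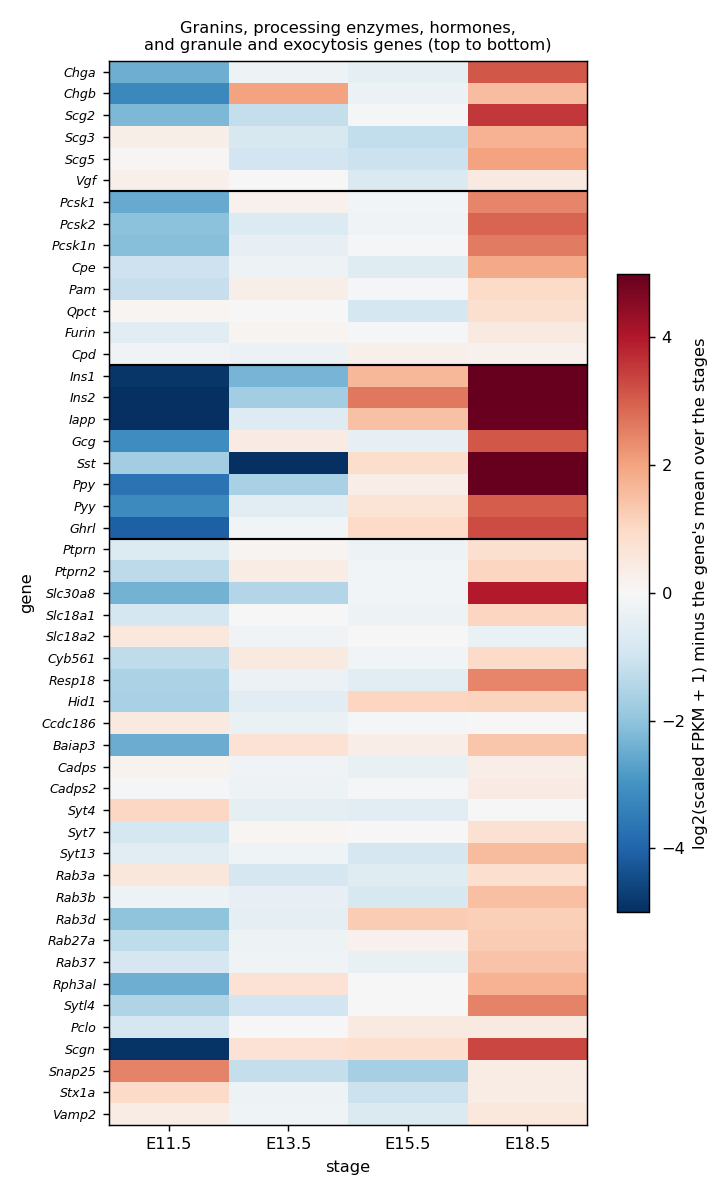
Log2(scaled FPKM + 1) of each gene minus its mean over the stages, for granins, prohormone processing genes, islet hormones, and granule and exocytosis genes. Red is above and blue below the gene's mean, and colours end at 5 in either direction. Chgb has its highest value on E13.5, while Scg2 goes up from stage to stage.

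Most endocrine transcription factors fell on E15.5 against E13.5. Of 17, 0 were higher and 4 lower on E15.5 against E13.5 by the rule of size, their median log2 difference was -0.63, and limma called 2 risen and 13 fallen. Of all genes, 1.48% were lower by size and 27.5% fell by limma. Pax4, a factor of beta cell precursors, was at 26.5 ± 0.896 FPKM on E15.5 and 66.96 ± 1.25 on E13.5. Neurog3, the factor that starts endocrine differentiation, was at 0.429 ± 0.0538 FPKM on E11.5, 134 ± 5.01 on E13.5, 85.8 ± 1.08 on E15.5 and 200.3 ± 2.04 on E18.5. On E18.5 against E15.5, 12 were higher and 0 lower, against 6.29% and 5.55% of all genes. In the same samples the 14 acinar genes summed to 8.16 FPKM on E11.5, 6482 on E13.5, 115697 on E15.5 and 61267 on E18.5. The part of the acinar transcripts in the lower values of these factors and of Chgb on E15.5 was not tested.

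**Figure D5:**
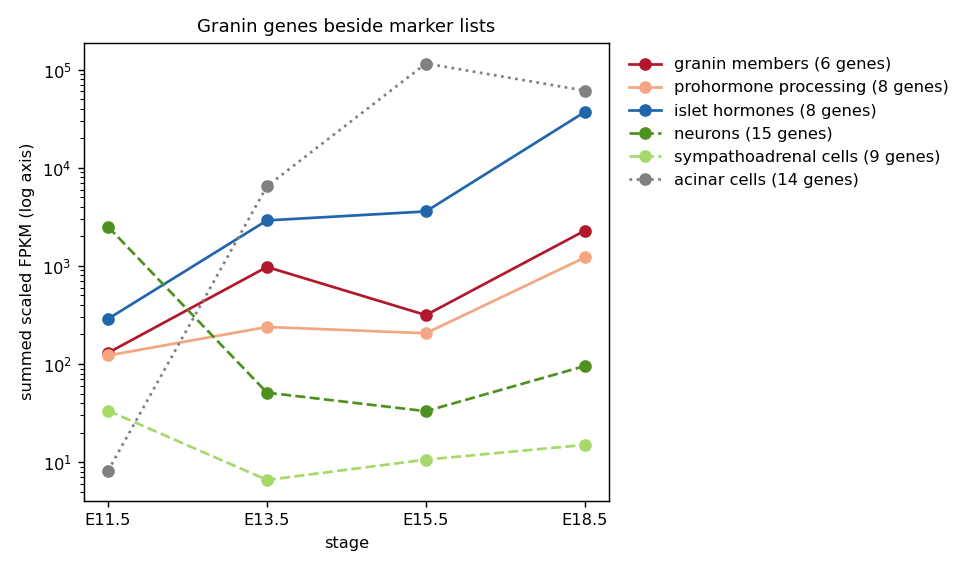
Summed scaled FPKM of the granins and of 5 other gene lists on a log axis, by stage. Granins and prohormone processing genes are lower on E15.5 than on E13.5 and highest on E18.5, neuronal markers are highest on E11.5, and acinar genes are highest on E15.5. The lower E15.5 sums rest mostly on Chgb for the granins and on Cpe for the processing genes. The E11.5 sum of the sympathoadrenal list rests mostly on 1 gene.

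Of 15 neuronal genes, 14 were lower and 0 higher on E13.5 against E11.5 by the rule of size, their median log2 difference was -4.85, and limma called 11 of 11 fallen, against 5.74% of all genes lower by size and 37.1% fallen by limma. At the 3 later stages 7, 8 and 5 of the 15 were under 1 FPKM. On E18.5 against E15.5, where 5 granins were higher, 3 of the 15 passed the rule of size as higher, and limma called 8 of 11 risen, against 6.29% and 38.1% of all genes. The part of these markers' cells in the granin levels of E18.5 was not tested. The median log2 difference of the 15 neuronal genes in this step was 0.88. Tubb3 was among those that rose, at 33.6 ± 0.0959 FPKM on E18.5 and 7.22 ± 0.779 on E15.5. Stmn2, under 1 FPKM at both stages, was at 0.0628 ± 0.0298 FPKM on E18.5 and 0.156 ± 0.00535 on E15.5.

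The 9 sympathoadrenal genes, which include chromaffin cell markers, summed to 33.5 FPKM on E11.5, 6.58 on E13.5, 10.6 on E15.5 and 14.99 on E18.5. A single gene made up 21.5 FPKM of the E11.5 sum, and the other 8 were highest on E18.5, at a sum of 14.96 FPKM, against 11.9 FPKM on E11.5. Dbh, the enzyme gene of noradrenaline synthesis, was under 1 FPKM at every stage. It was at 0.257 ± 0.135 FPKM on E11.5, 0.148 ± 0.0712 on E13.5, 0.0166 ± 0.0235 on E15.5 and 0.0145 ± 0.0205 on E18.5. Th, which encodes tyrosine hydroxylase, an earlier enzyme of the same pathway, was at 3.59 ± 0.374 FPKM on E11.5, 2.73 ± 0.0388 on E13.5, 1.81 ± 0.0902 on E15.5 and 8.77 ± 0.0878 on E18.5. Dbh was thus about as low on E15.5 as on E18.5, and Th was highest on E18.5. The part of such cells in the granin levels was not tested.

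Genes with stage profiles like those of the members were found by the distance between log2(FPKM + 1) profiles, each centred on its own mean over the 4 stages, among 5533 genes at 10 FPKM or more in a stage. With 4 points per gene this is a description. Adding 1 shrinks the changes of genes with levels under 1 FPKM, so genes with near profiles need not change by the same fold. Chga was nearest to Tesc (0.391), Sbspon (0.596) and Pcsk2 (0.686), and its distance to Scg2 was 1.13. Scg2 was nearest to Slc30a8 (0.527), Sult1c2 (0.617) and G6pc2 (0.622), the gene of an islet glucose-6-phosphatase. On E11.5 Slc30a8 and G6pc2 were both at 0.112 FPKM and Sult1c2 was listed at 0, where Scg2 was at 4.93. Sbspon was at 0.0402 FPKM on E11.5, where Chga was at 23.6. Chgb was nearest to ccdc198 (0.955), Kif12 (1.06) and Pax4 (1.13), and its distance to Chga, the closest member, was 2.86.

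The distance between Scg3 and Scg5 was 0.403. Only 2 of the 5533 genes were nearer to Scg3 than Scg5 was, Me1 (0.236) and Dcdc2a (0.398), followed beyond Scg5 by Pdgfd (0.489). For Scg5, 1 gene was nearer than Scg3, Ptgs1 (0.340), followed by Tnfrsf19 (0.410) and Dcdc2a (0.416). Vgf, whose changes on this scale are small because 1 is added to a low level, was nearest to Aktip (0.0285), Mdm1 (0.121) and Plscr3 (0.122).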

How the data were processed

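Total RNA of fetal pancreas was sequenced in 1 sample per stage. HISAT2 version 2.0.5 and the mm10 build are named per the submitters' processing notes. The sources used here do not name the counting tool, its annotation or the number of libraries. The authors deposited FPKM per Ensembl gene, called an average per the file headers. GENCODE M21 supplied symbols (for 54495 IDs), positions and exon lengths. Stages were scaled by median-of-ratios factors over 9884 genes at or above 1 FPKM in all stages (0.988, 1.03, 1.03 and 0.962, by age). Adding 1 before the log2 makes the change of low genes look smaller.

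After the data were seen, deposited FPKM times exon length was written as whole reads of 2 libraries per stage, which no label states. A mean was split where exactly 1 pair of whole reads matched it within its rounding and chance gave at most 0.05 pairs, or 0.5 where a split in another stage had checked the exon length. Of the genes tried, 96.6% to 96.8% were split. Among 1846 to 3042 genes per stage with at least 1000 reads in both libraries, 3 to 6 had libraries over 1.4-fold apart, so single splits can be wrong. Limma 3.58.1 (R 4.3.3; trend on mean level; Benjamini-Hochberg threshold 0.05) used the 13750 genes split in all 8 libraries, and a wider fit those split in both stages compared. Both steps were tested on simulated data.

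The members and the 14 gene lists, the members among them, were chosen with earlier results of these data known. The rule for named genes took the members, up to 4 genes per list with the largest difference past the rule of size in a comparison, up to 2 with the highest level, and the 3 nearest profiles per member. Epcam, Dbh, Rest and Creb1 were named outside it after their values were seen. Some genes of the lists are not reported here.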

Additional observations from a re-analysis of the deposited data

How the results depend on the processing

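Comparisons are listed in the order E13.5 against E11.5, E15.5 against E13.5, E18.5 against E15.5, E18.5 against E11.5 and E18.5 against E13.5. No member difference past either rule reversed under the alternatives tried. Setting every sample to the same FPKM total moved the median of all genes by -0.11, -0.41, 0.11, -0.46 and -0.30, and the members' medians were then 0.31, -0.89, 3.16, 2.78 and 2.30. With a pseudocount of 5 the medians were 0.31, -0.20, 2.73, 3.17 and 2.502, and without genes under 5 FPKM, which leaves out Vgf, they were 1.04, -0.19, 3.09, 4.78 and 2.96. For E18.5 against E15.5 and against E13.5 they were 3.09 and 2.80 with a pseudocount of 0.1, and 2.92 and 2.65 with no scaling. Members past the rule of size numbered 2 with a pseudocount of 5 and 2 at 4-fold in place of 5 on E13.5 against E11.5, 1 and 1 in place of 2 on E15.5 against E13.5, and 3 at 4-fold in place of 5 on E18.5 against E11.5. Using only splits with at most 0.05 chance pairs, an alternative chosen after seeing the data, left Scg2 and Scg3 untested, and limma then called 2, 1, 2, 1 and 2 members in place of 4, 3, 4, 3 and 4. The E13.5 mean of Chga, used in both tests of that gene, was likewise split only under the 0.5 limit. Those tests of Chga would be lost under the stricter limit. Leaving out each library in turn gave 3 to 4, 3 to 4, 4, 3 to 4 and 4 called members; a stage with 1 library left is assumed to vary like the others. No paired analysis was possible because the labels give 1 sample per stage. Depth limits Vgf most, with 24 reads on E15.5.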

Other observations

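Rest, which encodes a repressor of neuronal and endocrine genes, granin genes among them, was at 14.5 ± 0.717 FPKM on E11.5, 12.9 ± 0.483 on E13.5, 9.76 ± 0.0438 on E15.5 and 10.3 ± 0.00411 on E18.5. Of 9 genes of REST with its partners and of CREB with its relatives and coactivators, 0 were higher and 0 lower on E18.5 against E15.5 by the rule of size, their median log2 difference was 0.07, and limma called 3 risen and 3 fallen among 8, where 38.1% of all tested genes rose and 31% fell. Rcor2, a partner gene of REST, was at 53.5 FPKM on E11.5, 24.8 on E13.5, 10.2 on E15.5 and 14.03 on E18.5 and could not be split. Creb1 was at 2.29 ± 0.127 FPKM on E11.5, 1.91 ± 0.104 on E13.5, 2.96 ± 0.0439 on E15.5 and 1.83 ± 0.147 on E18.5. Transcript levels of these factors say nothing of their activity.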
